A study of Mus musculus with 6 samples.

Results

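The genes described here are 32 genes of the p53 pathway, namely Trp53 itself, its main regulators and well known p53 targets. They were listed by name and role, with no threshold on measured values, but earlier results of these libraries were known when the list was made. All 32 were found among the 55487 genes of the count table, and all 32 passed the filter on low counts that left 15748 genes for testing. PolyA RNA was sequenced from a mouse embryonic stem (ES) cell line, D6AdP, whose DDX6, an RNA helicase of mRNA repression and decay, can be removed by an auxin. There were 2 libraries of cells given 500 nM 5-Ph-IAA (an auxin analog) for 6 h, 2 of cells given it for 3 h, and 2 of cells sampled at 0 h, before it was added. All 6 libraries share 1 genotype. Ddx6 is tagged on both alleles with mCherry and AID, a degron that responds to auxin. EGFP sits on 1 of the Dcp1a alleles, and OsTIR1-FLAG, a plant protein that marks degron-tagged proteins for the proteasome once auxin is given, comes from a transgene. The medium of all cells held PD0325901, which inhibits MEK, CHIR99021, which inhibits GSK3, and leukemia inhibiting factor, and the cells grew on fibroblast feeders that Mitomycin-C had stopped from dividing. Cells of 1 line were used, and neither untreated cells kept for 3 or 6 h nor treated cells without the degron were analysed here. The effects of the analog itself, of time in culture and of DDX6 loss therefore cannot be told apart. Whether the 2 libraries of a time stem from separate cultures is not in the labels. The p-values thus cover the spread between libraries alone, and that spread may be technical.

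p53 is a transcription factor that is made continuously and degraded as fast, because MDM2, itself a p53 target, marks it for the proteasome. DNA damage and other stresses free p53 from MDM2 and MDM4, and it then switches on genes that halt the cell cycle, repair DNA or start apoptosis, along with feedback inhibitors that switch it off again. ES cells hold much p53 mRNA and protein while they divide, and several p53 targets encode short-lived mRNAs. DDX6 works in the cytoplasm, where it links microRNA repression and deadenylation of mRNA to decapping and to repressed translation.

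The 20-base p53 consensus, a pair of 10-base half-sites, was searched in the 300 bases around the transcription start (250 before and 50 after it) in the RefSeq promoters of GRCm38.p6. The consensus reads the same on both strands. Up to 3 mismatches and a spacer of up to 1 base were allowed, and the C and the G of each half-site core had to be present. Of the 32 genes 24 had an entry, and 9 of these 24 (37.5%) held a match, against 884 of 27025 genes with a promoter (3.27%). With at most 1 mismatch the counts were 3 of 24 (12.5%) and 35 of 27025 (0.13%). These genes were listed as p53 targets, so the excess restates how they were chosen. A match is a likeness of letters and not a measured binding site. Bases outside this window were not searched, so a gene without a match may still hold a p53 site. Some RefSeq starts lie inside the annotated gene, as that of Sesn1 does (gene from 41809935 to 41908424 on chromosome 10). The matches are shown because genes that hold one did different things at 6 h, as given below. The capitals mark the 4 core bases of each half-site, and each sequence is read 5′ to 3′ on the strand of its gene.
Ccng1 (chr11:40755462-40755481, minus strand, 1 mismatch): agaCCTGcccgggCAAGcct
Cdkn1a (chr17:29090928-29090947, plus strand, 1 mismatch): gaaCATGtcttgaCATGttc
Gtse1 (chr15:85859945-85859964, plus strand, 1 mismatch): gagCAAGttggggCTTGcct
Bax (chr7:45467079-45467099, minus strand, 2 mismatches, 1-base spacer): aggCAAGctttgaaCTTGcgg
Trp53 (chr11:69580284-69580303, plus strand, 3 mismatches): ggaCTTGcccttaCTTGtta
Sesn1 (chr10:41887266-41887285, plus strand, 3 mismatches): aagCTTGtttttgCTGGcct
Bbc3 (chr7:16309486-16309505, plus strand, 3 mismatches): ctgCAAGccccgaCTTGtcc
Aen (chr7:78895937-78895956, plus strand, 3 mismatches): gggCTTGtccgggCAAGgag
Wrap53, the ninth gene, is transcribed away from Trp53 and shares the Trp53 stretch on the other strand. Among the 9 genes with a match, 4 were lower at 6 h than at 0 h (Gtse1, Aen, Bax and Trp53), 1 was higher (Sesn1) and 4 were not called changed (Ccng1, Cdkn1a, Bbc3 and Wrap53). Among the 15 genes with an entry and no match, 5 were lower and none was higher, and among the 8 without an entry 4 were lower and 1 was higher. Of all tested genes with a promoter, 16.3% of the 412 with a match were lower and 15.3% higher, against 13.3% and 10.8% of the 10745 without one. The match of Cdkn1a, which was not called, has as few mismatches as that of Gtse1, which fell.

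A second set of sequences concerns the 3′ UTR, where microRNAs and AU-rich elements act on mRNA stability. ES cells are known for the miR-290 and miR-302 microRNAs, which share the seed AAGUGCU and have Cdkn1a as a known target. A microRNA of each family is given from RefSeq (GRCm38.p6), with the seed (bases 2 to 8) in capitals. MicroRNAs were not measured in these libraries.
mmu-miR-294-3p: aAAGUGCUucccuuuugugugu
mmu-miR-302b-3p: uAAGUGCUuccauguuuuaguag
The letters that pair with this seed, AGCACTT, and the AU-rich heptamer TATTTAT were searched on the transcript strand in the longest GENCODE M21 3′ UTR of at least 50 bases (GRCm38). Of the 32 genes 31 had one. The gene with the most seed matches, Cdkn1a, and the genes with the largest fall and the largest rise, Plk3 and Rrm2b, are shown with the match in capitals. The positions given below cover the match and 8 bases on each side of it. No match in capitals overlaps another, but neighbouring stretches of Plk3 share flanking bases.
Cdkn1a seed match 1 (chr17:29099820-29099842, plus strand): acctgaatAGCACTTtggaaaaa
Cdkn1a seed match 2 (chr17:29100492-29100514, plus strand): ggtgtcaaAGCACTTagtgggtc
Plk3 AU-rich match 1 (chr4:117128738-117128760, minus strand): gggggcatTATTTATggaccact
Plk3 AU-rich match 2 (chr4:117128721-117128743, minus strand): accactttTATTTATtaacagac
Plk3 AU-rich match 3 (chr4:117128703-117128725, minus strand): cagacattTATTTATtgggatgt
Rrm2b AU-rich match 1 (chr15:37926912-37926934, minus strand): cttcagttTATTTATacaatgaa
Rrm2b seed match (chr15:37926857-37926879, minus strand): ttgtcataAGCACTTaagatggc

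The libraries held 16357142 to 21846959 counts. The 32 genes took 0.344% and 0.341% of the counts at 6 h (95% Wilson intervals 0.341 to 0.347 and 0.338 to 0.344), 0.354% in both libraries at 3 h (0.351 to 0.356 and 0.352 to 0.357), and 0.366% and 0.364% at 0 h (0.363 to 0.368 and 0.361 to 0.366). Levels are given as CPM (counts scaled by library size and TMM factor), and 3 counts stood for 0.139 to 0.181 CPM. The intervals and this floor cover counting error only. The mRNA of Ddx6 measured 267 and 249.6 CPM at 0 h, 268 and 271 at 3 h, then 258 and 247 at 6 h, and it was not called changed (log2 fold change at 6 h against 0 h -0.03 ± 0.04, adjusted p = 0.581). Since auxin removes the protein and not its mRNA, these values are no check of the depletion. All 10 ES cell markers were detected in every library, and so were all 26 markers of feeder fibroblasts. RNA of ES cells and of feeders was not separated. The feeder markers summed to 19110 and 17150 CPM at 6 h, to 16740 and 16570 CPM at 3 h, and to 19110 and 17370 CPM at 0 h. The ES cell markers summed to 5076 and 5231 CPM at 6 h, to 5633 and 5593 CPM at 3 h, and to 5479 and 5656 CPM at 0 h. Markers of other cell types were low, with sums from 29.7 to 35.4 CPM for primitive endoderm over the 6 libraries. Those of trophectoderm summed to 88.12 and 100 CPM at 6 h, to 85.76 and 86.09 CPM at 3 h, and to 77.15 and 77.61 CPM at 0 h. For 6 h against 0 h, 2 of 5 tested trophectoderm markers were called higher and none lower. Of 5 tested primitive endoderm markers 1 was lower and none higher.

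In the mixed RNA of ES cells and feeders, the pathway was already expressed over a wide range at 0 h. How much of each level, that of Cdkn1a included, came from the Mitomycin-C-treated feeders was not tested. Per length (CPM per kb of annotated exon), the highest of the 32 genes was Ccng1 at 142, followed by Cdkn1a at 123. Bax (72.6), Gtse1 (71.9) and Trp53 (70.3) came next. Of these, Gtse1 overlapped with Bax and with Trp53 between the 0 h libraries, so their order is uncertain. The lowest were Jag2 (2.10), Fas (1.68) and Rrm2b (1.32). At 6 h Rrm2b measured 2.15 CPM per kb, beside 2.18 for Fas and 2.36 for Jag2, and Gtse1 measured 55.8, below Trp53 at 65.2.

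**Figure D1:**
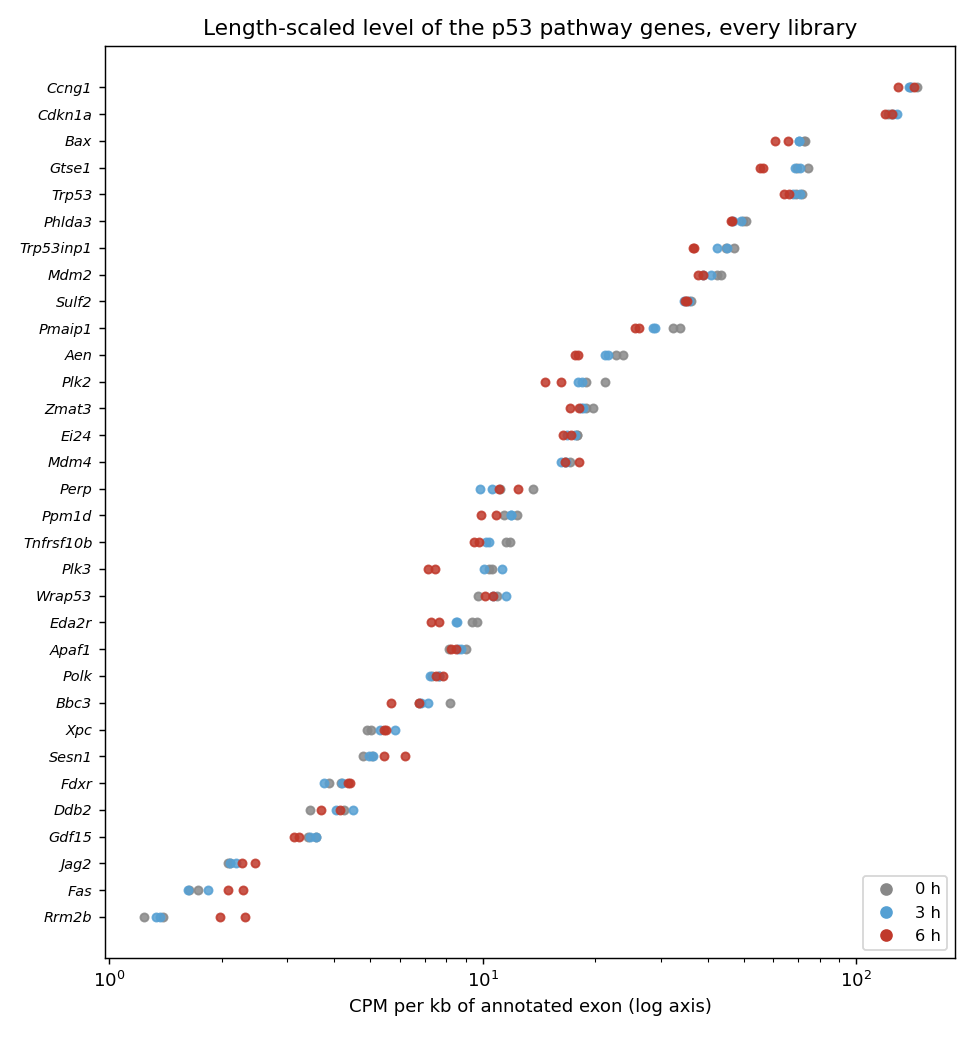
Length-scaled level (CPM per kb of annotated exon, log axis) of the 32 genes in each of the 6 libraries, ordered by the 0 h mean. Levels ran from 142 for Ccng1 to 1.32 for Rrm2b at 0 h, and the 6 h points of Gtse1, Plk3 and Rrm2b stand clear of their 0 h and 3 h points.

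In the comparison of 6 h with 0 h, the pathway was lower in more genes than it was higher. Of the 32 genes 13 were called lower and 2 higher at an edgeR quasi-likelihood adjusted p under 0.05 (Benjamini-Hochberg over all 15748 genes, two-sided), and 17 were not called. Of all genes tested, 12.3% were called lower, 10.0% higher and 22.3% in either direction. The genes that fell were Trp53, Mdm2, Ppm1d, Trp53inp1, Gtse1, Plk2, Plk3, Zmat3, Bax, Pmaip1, Aen, Tnfrsf10b and Eda2r, and those that rose were Sesn1 and Rrm2b. The falls were small, between 0.11 (Trp53) and 0.53 (Plk3) on the log2 scale. The median log2 fold change of the 32 genes was -0.10, against 0.0019 over all genes tested. The CPM of the 6 h libraries and the 0 h libraries did not overlap in 22 of the 32 genes, 16 of them lower and 6 higher at 6 h, against 59.4% of all genes (29.9% lower and 29.6% higher). With library totals in place of TMM factors, 10 of the 32 genes were lower and 2 higher, and the calls over all genes were 2128 higher and 1457 lower, against 1575 higher and 1940 lower with TMM factors. Fewer cells of a type and less RNA per cell cannot be told apart in these bulk samples. For 6 h against 0 h, 2 of the 26 feeder markers were higher and none lower. With the mean of these markers as a covariate 15 of the 32 p53 pathway genes were lower and 2 higher. Calls over all 15748 genes also rose in that fit, to 2569 lower and 2131 higher, against 1940 and 1575 without the covariate. Of the 10 ES cell markers 3 were higher and 4 lower, and their part in the result was not tested.

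**Figure D2:**
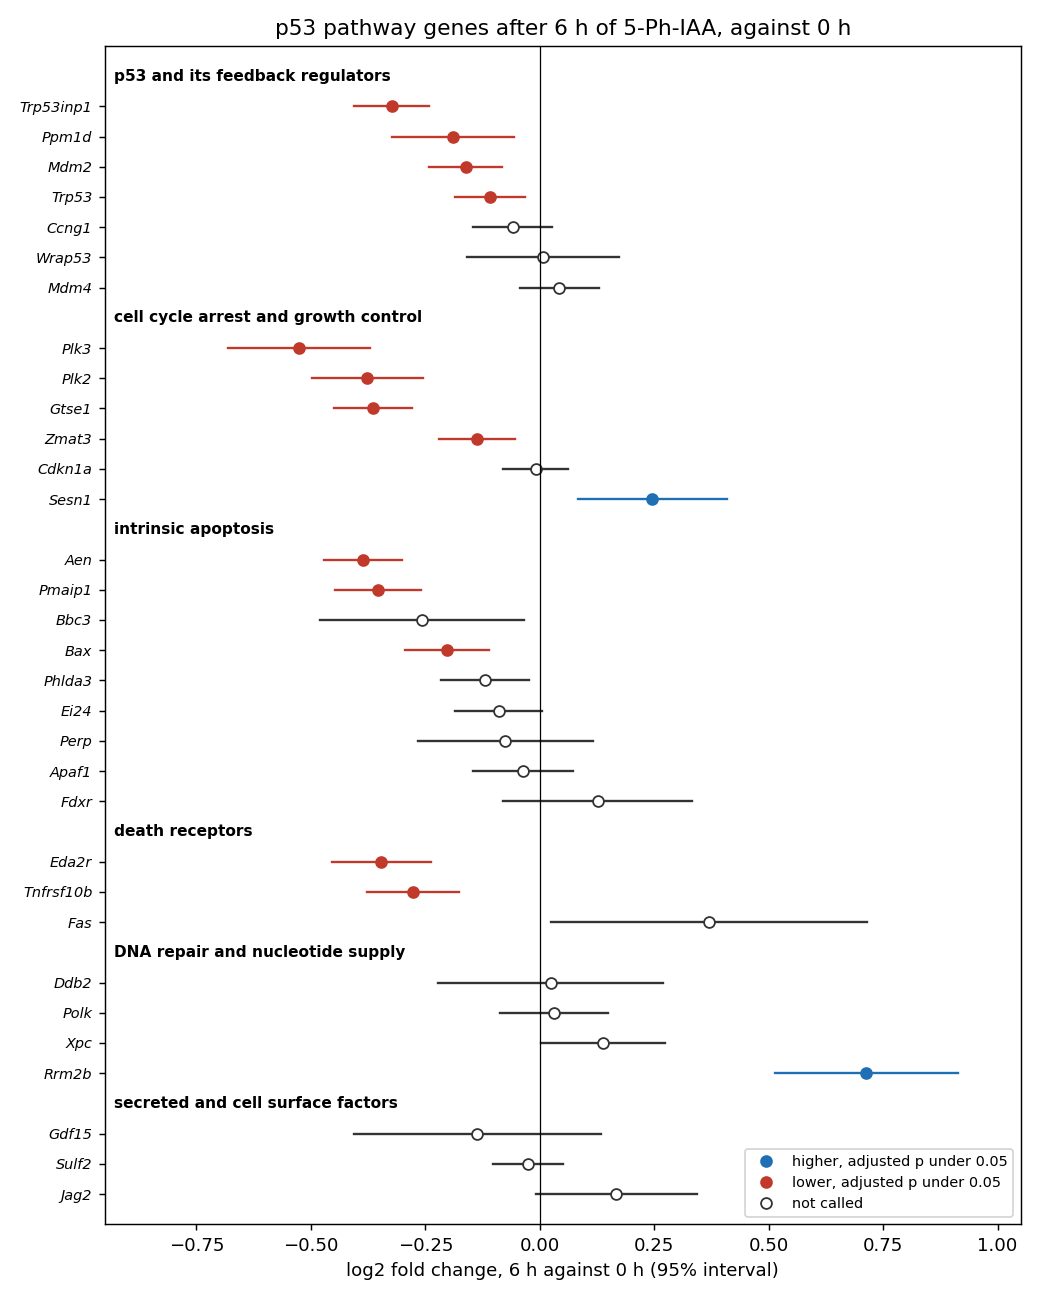
Log2 fold change of each of the 32 genes for 6 h against 0 h, with its 95% interval, grouped by role. Filled points passed the adjusted p threshold of 0.05. The 13 red points lie below 0 and the 2 blue points, Sesn1 and Rrm2b, above it.

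Among p53 and its feedback regulators 4 of 7 genes fell and none rose, against 12.3% and 10.0% of all genes tested. The same shares stand beside the counts of each role below. Trp53 (ENSMUSG00000059552, chromosome 11, 69580359 to 69591873, GRCm38), which encodes p53, measured 279.7 and 289 CPM at 0 h, 286 and 274.5 at 3 h, then 259.6 and 268 at 6 h. Both 6 h values were below the other 4 by a small margin, with a log2 fold change of -0.11 ± 0.04 (SE) against 0 h (adjusted p = 0.0403). Mdm2 (ENSMUSG00000020184, chromosome 10, 117688875 to 117710758), the ubiquitin ligase that degrades p53, measured 221 and 215 CPM at 0 h, 198 and 208 at 3 h, then 192 and 197 at 6 h. Its libraries of 6 h and of 3 h all lay below those of 0 h, and the change at 6 h was -0.16 ± 0.04 (adjusted p = 0.00530). Ppm1d, the phosphatase WIP1 that removes activating phosphates from p53 and ATM targets, measured 36.1 and 39.1 CPM at 0 h, 37.8 and 37.9 at 3 h, then 31.4 and 34.5 at 6 h. Only the 6 h libraries were low (-0.19 ± 0.06, adjusted p = 0.0389). Trp53inp1, a nuclear protein that promotes p53 phosphorylation and autophagy, measured 289.9 and 305 CPM at 0 h, 275 and 292 at 3 h, then 237 and 238 at 6 h. Here the 6 h libraries stood well below the rest, with a change of -0.32 ± 0.04 (adjusted p = 1.61e-05). The other 3 regulators were not called. Ccng1, a cyclin that recruits a phosphatase to MDM2, ran from 455 to 510.1 CPM over the 6 libraries, Mdm4, the MDM2 relative that masks p53, from 240.2 to 268 CPM, and Wrap53, a telomerase and Cajal body protein, from 20.04 to 23.9 CPM.

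The calls of 3 of these regulators did not hold in every alternative. Trp53 and Ppm1d also lost theirs when a 3 h library, outside this comparison, was left out. Their log2 fold changes were then -0.10 and -0.18, close to the main values. Neither gene was called with no filter on low counts, with only the 4 libraries compared, or with library totals in place of TMM factors. Trp53 was not called without 0 h replicate 1 (adjusted p = 0.0567), 0 h replicate 2 (0.243), 3 h replicate 1 (0.0765), 3 h replicate 2 (0.0754) or 6 h replicate 1 (0.202), nor with DESeq2 (0.138). Ppm1d was not called without 0 h replicate 2 (0.274), 3 h replicate 1 (0.0671), 3 h replicate 2 (0.0669) or 6 h replicate 1 (0.297), nor with DESeq2 (0.212). Mdm2 missed the threshold without 0 h replicate 1 (0.0509) and was called with DESeq2 (0.0211). Ccng1 was called lower without 6 h replicate 1 (0.0256).

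Among genes of cell cycle arrest and growth control 4 of 6 fell and 1 rose. Cdkn1a (ENSMUSG00000023067, chromosome 17, 29090976 to 29100727), which encodes p21, the inhibitor of cyclin-dependent kinases and the best known p53 target, measured 432 and 441 CPM at 0 h, 456 and 444 at 3 h, then 443 and 425 at 6 h. The 6 h and 0 h libraries overlapped, and the log2 fold change was -0.01 ± 0.03 (adjusted p = 0.884, 95% interval -0.08 to 0.06). A transcript on the opposite strand overlaps 7.68% of the exon length of Cdkn1a. Plk3 (ENSMUSG00000028680, chromosome 4, 117128655 to 117133963), a stress-responsive kinase of the Polo family, measured 26.4 and 26.9 CPM at 0 h, 28.4 and 25.5 at 3 h, then 18.9 and 18.1 at 6 h. Both 6 h values were under all others, and this was the largest fall among the 32 genes, at -0.53 ± 0.07 (adjusted p = 7.86e-05). Plk2, a related kinase of centriole duplication, measured 95.3 and 85.1 CPM at 0 h, 82.6 and 81.0 at 3 h, then 73 and 65.9 at 6 h. The libraries of the 3 times fell into separate ranges, with a change of -0.38 ± 0.06 at 6 h (adjusted p = 0.000175), but the change at 3 h was not called (0.374). Gtse1 (ENSMUSG00000022385, chromosome 15, 85859745 to 85876573), a microtubule-binding protein of G2 and M phase that in human cells moves p53 out of the nucleus, measured 190.3 and 204 CPM at 0 h, 194 and 188 at 3 h, then 152 and 154 at 6 h. The 3 h libraries lay with those of 0 h and the 6 h libraries below both (-0.37 ± 0.04, adjusted p = 7.34e-06).

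Zmat3, an RNA-binding zinc finger protein, measured 226 and 216 CPM at 0 h, 213 and 209 at 3 h, then 207 and 195 at 6 h, a narrow decline without overlap between 6 h and 0 h (-0.14 ± 0.04, adjusted p = 0.0178). The call was lost without 0 h replicate 1 (0.171), without 6 h replicate 2 (0.163) and with DESeq2 (0.0647). Sesn1, an inhibitor of mTORC1 signalling, measured 20.1 and 19.1 CPM at 0 h, 20.2 and 19.7 at 3 h, then 21.7 and 24.7 at 6 h. Both 6 h libraries were above the rest, and 6 h replicate 2 stood highest (0.25 ± 0.08, adjusted p = 0.0297). The rise of Sesn1 was not called without 0 h replicate 2 (0.147), without 6 h replicate 2 (0.297) or with DESeq2 (0.192).

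Among genes listed under intrinsic apoptosis 3 of 9 fell and none rose. Aen (ENSMUSG00000030609, chromosome 7, 78895854 to 78911209), an exonuclease that enhances apoptosis after DNA damage, measured 132 and 137 CPM at 0 h, 123 and 126 at 3 h, then 102 and 104 at 6 h. The libraries of each time kept apart from those of the others, in falling order with time, and the change at 6 h was -0.39 ± 0.04 (adjusted p = 3.96e-06). Pmaip1 (ENSMUSG00000024521, chromosome 18, 66458533 to 66465565), which encodes the BH3-only protein NOXA, measured 92.2 and 88.5 CPM at 0 h, 79.1 and 78.0 at 3 h, then 69.9 and 71.5 at 6 h. It showed the same stepwise order, with -0.35 ± 0.04 at 6 h (adjusted p = 2.55e-05). The step at 3 h was called by edgeR in neither Aen (adjusted p = 0.288) nor Pmaip1 (0.0793). Bax, which forms the pore in the outer mitochondrial membrane, measured 114.7 and 114.2 CPM at 0 h, 110.5 in both libraries at 3 h, then 103 and 95.75 at 6 h. Both 6 h libraries were lower than the other 4 (-0.20 ± 0.04, adjusted p = 0.00287). Exons of Bax overlap another gene on the same strand over 12.2% of their length, so a part of its counts is uncertain. Bbc3, which encodes the BH3-only protein PUMA, measured 17.4 and 14.3 CPM at 0 h, 15.2 and 14.6 at 3 h, then 12.1 and 14.3 at 6 h. The 6 h and 0 h libraries touched, and Bbc3 was not called (-0.26 ± 0.11, adjusted p = 0.0917). It was called lower without 0 h replicate 2 (0.0156) and without 6 h replicate 2 (0.0459).

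The other 5 apoptosis genes were not called at 6 h. Over the 6 libraries Apaf1, the scaffold of the apoptosome, ran from 73.2 to 81.4 CPM, Ei24, a membrane protein of the endoplasmic reticulum, from 79.9 to 87.3 CPM, and Phlda3, an inhibitor of AKT, from 71.9 to 79.2 CPM. Perp, a protein of cell junctions, ran from 19.2 to 26.6 CPM and Fdxr, the mitochondrial ferredoxin reductase, from 10.5 to 12.4 CPM. Of these, Phlda3 came nearest to the threshold, with log2 fold change -0.12 ± 0.05 (adjusted p = 0.0663) and no overlap between 6 h and 0 h.

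Of the 3 death receptors 2 fell. Eda2r (ENSMUSG00000034457, chromosome X, 97333840 to 97377216), the receptor of ectodysplasin A2, measured 55.0 and 56.9 CPM at 0 h, 49.99 and 50.3 at 3 h, then 42.9 and 45.1 at 6 h. Tnfrsf10b (ENSMUSG00000022074, chromosome 14, 69767472 to 69784411), the mouse TRAIL receptor, measured 64.4 and 62.9 CPM at 0 h, 56.5 and 55.7 at 3 h, then 53.3 and 51.7 at 6 h. In both genes the 3 times formed separate steps downward, and the changes at 6 h were -0.35 ± 0.05 for Eda2r (adjusted p = 0.000131) and -0.28 ± 0.05 for Tnfrsf10b (adjusted p = 0.000527). The step at 3 h was called in neither gene, and the step from 3 h to 6 h was not called in Tnfrsf10b. Of all genes tested, 21.8% were lower without overlap at 3 h against 0 h, and 30.0% at 6 h against 3 h. How many genes in all had both steps was not counted. Fas, the receptor of FAS ligand, was expressed at a low level, from 3.36 to 4.70 CPM over the 6 libraries. Both 6 h libraries were above the other 4, but Fas was not called (0.37 ± 0.16, adjusted p = 0.119, 95% interval 0.02 to 0.71).

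Among 4 genes of DNA repair and nucleotide supply none fell and 1 rose. Rrm2b (ENSMUSG00000022292, chromosome 15, 37923952 to 37961318), the p53-inducible small subunit of ribonucleotide reductase that supplies deoxynucleotides outside S phase, measured 12.7 and 11.3 CPM at 0 h, 12.2 and 12.5 at 3 h, then 18.1 and 21.1 at 6 h. The 3 h libraries lay within the 0 h range and both 6 h libraries far above it. The log2 fold change of 0.71 ± 0.09 (adjusted p = 4.84e-05), or 1.64-fold, was the largest in size among the 32 genes. An antisense gene overlaps 8.04% of the exon length of Rrm2b, and without a stated strand setting its reads cannot be told apart from those of Rrm2b. The repair genes were not called. Over the 6 libraries Xpc, the damage sensor of nucleotide excision repair, ran from 27.0 to 31.98 CPM, Ddb2, its partner in UV damage recognition, from 9.42 to 12.3 CPM, and Polk, a polymerase that copies damaged DNA, from 40.2 to 43.5 CPM. Ddb2 shares 23.8% of its exon length with Acp2 on the opposite strand.

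Of 3 genes for secreted and cell surface factors none was called. Sulf2, an extracellular sulfatase, ran from 203 to 212 CPM, Jag2, a Notch ligand, from 14.5 to 17.1 CPM, and Gdf15, a stress cytokine, from 5.79 to 6.63 CPM. The 95% interval of the change in Sulf2 was -0.10 to 0.05, and those of Jag2 (-0.01 to 0.34) and Gdf15 (-0.41 to 0.13) were wider.

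**Figure D3:**
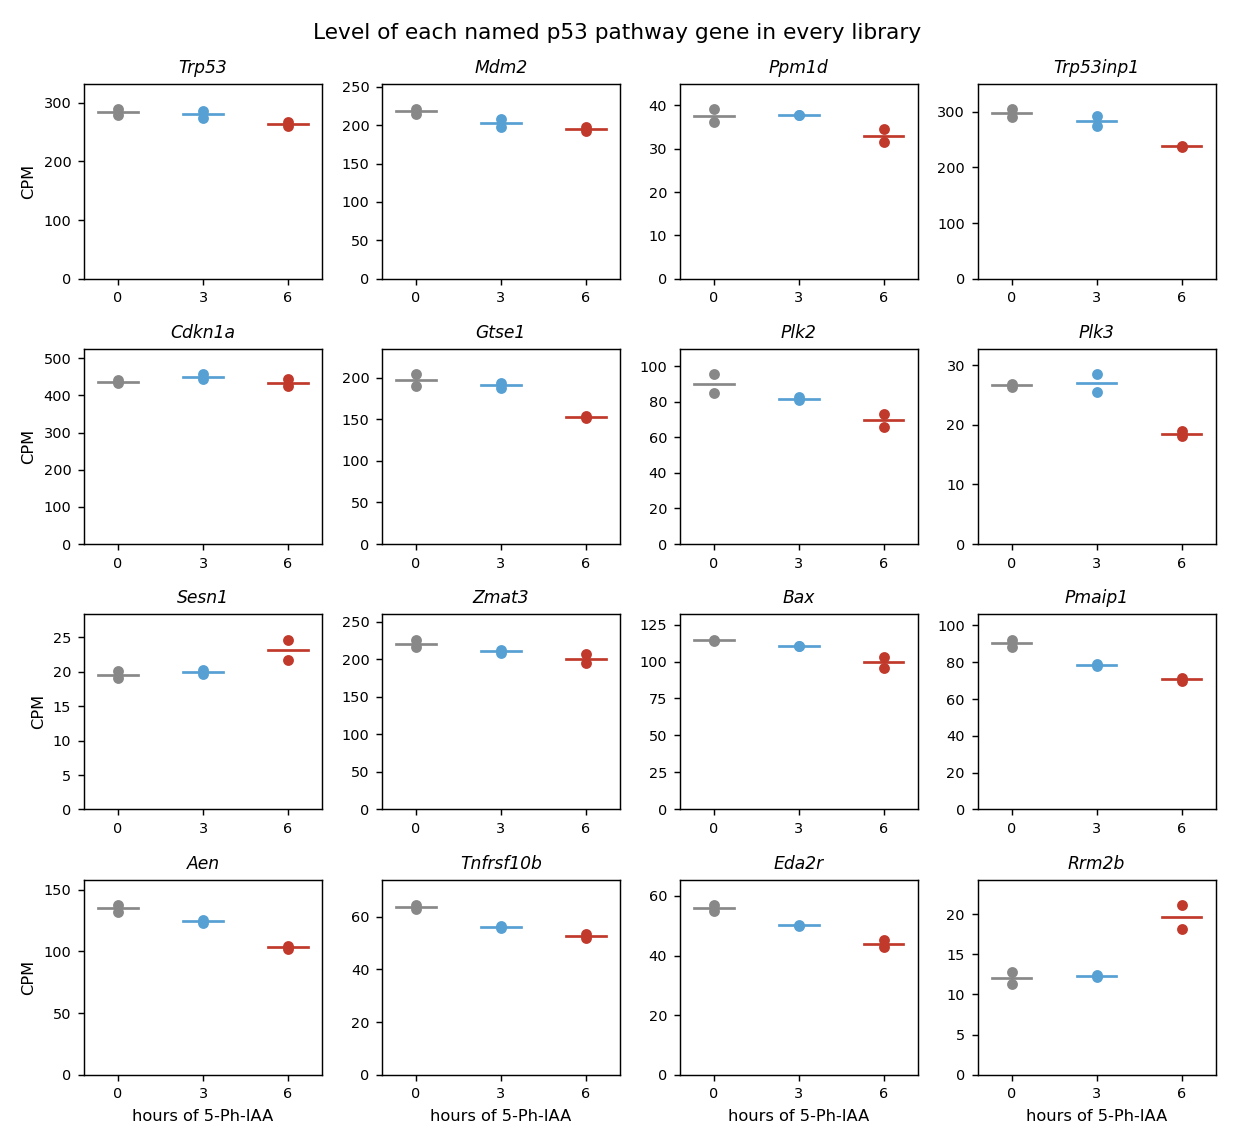
CPM of 16 p53 pathway genes in each library at 0, 3 and 6 h (points) with the mean of each time (line). All axes start at 0. None of the changes from 0 h to 3 h was called. In Plk3, Gtse1 and Trp53inp1 the 6 h points lie below all others, in Aen, Pmaip1, Tnfrsf10b and Eda2r the points step down at 3 h and at 6 h, in Rrm2b the 6 h points lie above all others, and in Cdkn1a the points of 6 h and 0 h overlap.

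In the comparison of 3 h with 0 h, none of the 32 genes was called by edgeR, DESeq2 or limma voom, against 0.140% of all genes tested with edgeR (0.0508% higher and 0.0889% lower). At an unadjusted p under 0.05 there were 8 of the 32 genes, against 10.7% of all genes tested, and the median log2 fold change was -0.03, against -0.00084 over all genes. The libraries of the 2 times did not overlap in 13 genes, 11 lower and 2 higher at 3 h, against 42.3% of all genes (21.8% lower and 20.5% higher). The values furthest below 0 were those of Perp (-0.28 ± 0.09, adjusted p = 0.271), Pmaip1 (-0.20 ± 0.04, adjusted p = 0.0793), Tnfrsf10b (-0.18 ± 0.05, adjusted p = 0.164) and Eda2r (-0.16 ± 0.05, adjusted p = 0.252). Pmaip1 was called lower without 0 h replicate 2 (0.0245), without 6 h replicate 1 (0.0415) and without 6 h replicate 2 (0.0418), and Perp without 0 h replicate 2 (0.0138). Perp measured 19.2 and 20.7 CPM at 3 h, against 26.6 and 21.8 at 0 h, and 24.3 and 21.6 at 6 h, so its libraries at 6 h overlapped those of 0 h. Cdkn1a was at 0.05 ± 0.03 (adjusted p = 0.669), with both 3 h libraries above those of 0 h. No feeder marker was called at 3 h, and their median was -0.13.

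In the comparison of 6 h with 3 h, 9 of the 32 genes were lower and 1 was higher, against 11.8% and 9.89% of all genes tested (21.7% in either direction). The log2 fold changes of the genes that fell were -0.55 ± 0.07 for Plk3 (adjusted p = 6.54e-05), -0.32 ± 0.04 for Gtse1 (4.09e-05), -0.27 ± 0.04 for Aen (0.000193), -0.25 ± 0.04 for Trp53inp1 (0.000210), -0.24 ± 0.06 for Plk2 (0.00773), -0.20 ± 0.06 for Ppm1d (0.0332), -0.19 ± 0.05 for Eda2r (0.0158), -0.15 ± 0.04 for Bax (0.0199) and -0.15 ± 0.04 for Pmaip1 (0.0223). Rrm2b rose by 0.67 ± 0.09 (adjusted p = 9.62e-05). Trp53 (-0.09, adjusted p = 0.0945), Mdm2 (-0.06, 0.293), Zmat3 (-0.07, 0.232) and Tnfrsf10b (-0.10, 0.172), which were lower at 6 h than at 0 h, were not called against 3 h. The 2 times did not overlap in 25 of the 32 genes, 19 lower and 6 higher, against 60.8% of all genes (30.0% lower and 30.8% higher). In this comparison 10 of the 26 feeder markers were higher and none lower (median 0.13), and 4 ES cell markers were lower. With the feeder markers as a covariate 8 of the 32 genes were lower and 2 higher, against 1001 lower and 743 higher of all 15748 genes. In that fit Ppm1d (-0.05, adjusted p = 0.798), Eda2r (-0.12, 0.378) and Pmaip1 (-0.17, 0.0986) were no longer called. Ccng1 (-0.16, adjusted p = 0.00460) and Zmat3 (-0.16, 0.0241) were called lower instead, and Mdm4 (0.17, 0.00895) higher.

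Of the 9 genes lower at 6 h than at 3 h, those called in all 16 alternative analyses were Plk3, Gtse1, Aen and Trp53inp1, and the rise of Rrm2b was also called in all 16. The other 5 were not called with no filter on low counts. With DESeq2 Ppm1d (adjusted p = 0.183), Bax (0.0925), Pmaip1 (0.141) and Eda2r (0.126) were not called, and with the feeder-marker covariate Ppm1d, Pmaip1 and Eda2r. Each of these 5 calls was also lost in several of the fits that left out 1 library. Ppm1d was not called without 3 h replicate 1 (adjusted p = 0.141), 3 h replicate 2 (0.1499) or 6 h replicate 1 (0.285), and Plk2 without 3 h replicate 1 (0.0796), 3 h replicate 2 (0.0522) or 6 h replicate 2 (0.103). Bax was not called without 3 h replicate 1 (0.118), 3 h replicate 2 (0.121) or 6 h replicate 2 (0.203). Eda2r was not called without 3 h replicate 1 (0.0886), 3 h replicate 2 (0.107) or 6 h replicate 1 (0.141). Pmaip1 was not called without 3 h replicate 1 (0.160), 3 h replicate 2 (0.108), 6 h replicate 1 (0.140) or 6 h replicate 2 (0.0539). The number of genes lower was thus 4 without either 3 h library and 6 without either 6 h library. Sesn1 (0.22 ± 0.08, adjusted p = 0.0509) was called higher without 0 h replicate 1 (0.0389), 0 h replicate 2 (0.0346) or 6 h replicate 1 (0.0236), and Mdm4 without 6 h replicate 1 (0.0244).

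**Figure D4:**
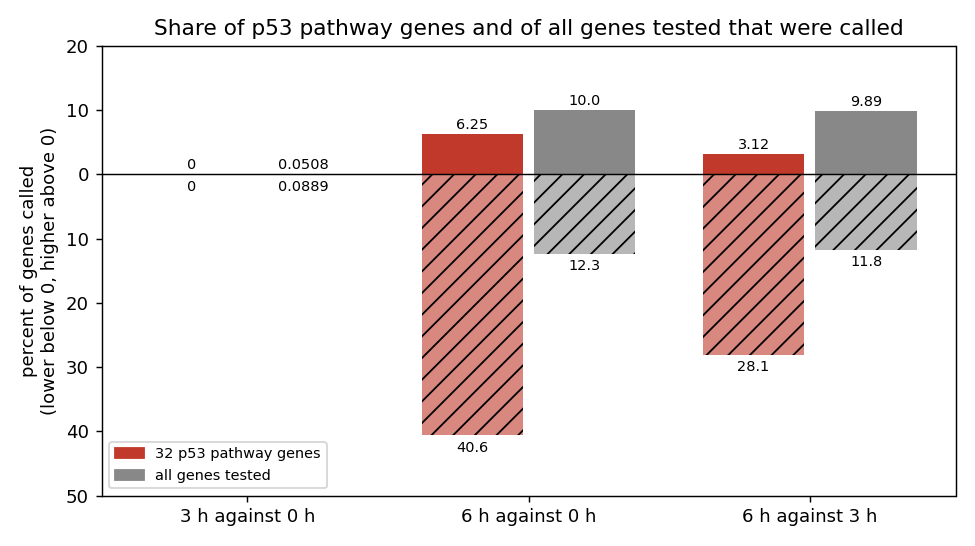
Percent of the 32 p53 pathway genes (red) and of all 15748 genes tested (grey) that edgeR called higher (above 0) or lower (below 0, hatched) in each comparison. At 6 h against 0 h, 40.6% of the 32 genes were lower, against 12.3% of all genes, and 6.25% were higher, against 10.0%.

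The 3′ UTR matches shown above were set beside the changes at 6 h. Matches to the seed were found in 7 of the 31 genes with a 3′ UTR (22.6%), against 18.4% of the 13562 tested genes with one. These were Ccng1, Trp53inp1, Cdkn1a, Zmat3, Ei24, Polk and Rrm2b. Of the 7 genes, 1 rose and 2 fell, with a median log2 fold change of -0.06, and of the 24 genes without a match 1 rose and 11 fell, with a median of -0.13. Over all tested genes, 13.8% of those with a seed match were higher and 15.1% lower, against 10.4% and 13.1% of those without one. The AU-rich heptamer was found in 14 of the 31 genes (45.2%), against 30.5% of tested genes. Of these 14 genes 7 fell (Mdm2, Trp53inp1, Plk2, Plk3, Pmaip1, Tnfrsf10b and Eda2r) and 1 rose (Rrm2b), and of the 17 without it 6 fell and 1 rose. Over all tested genes, 16.9% of those with the heptamer and 11.9% of those without it were lower at 6 h. Those higher made up 12% with it and 10.6% without it, and the median log2 fold changes were -0.0018 and 0.0062. Plk3 and Rrm2b, which moved furthest in opposite directions, hold 3 and 4 copies. The median 3′ UTR was 1218 bases long with 42.9% GC in the 31 genes and 1372 bases with 45.3% GC in all tested genes.

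Other genes of the pathway were grouped in 5 lists, none of them sharing a gene with the 32. No gene of these lists was called at 3 h against 0 h, against 0.140% of all genes tested. At 6 h against 0 h 10.0% of all genes tested were higher and 12.3% lower, the shares that stand beside each count below. Of 8 kinases and sensors upstream of p53, 1 was higher and 1 lower at 6 h than at 0 h. Trp53bp1, a scaffold at DNA breaks, measured 67.6 ± 2.63 CPM at 6 h and 58.1 ± 1.09 CPM at 0 h (SD, n = 2 each), a log2 fold change of 0.22 ± 0.05 (adjusted p = 0.00379). Tubgcp4 on the opposite strand overlaps 15% of the exon length of Trp53bp1. Chek1, the kinase of the replication checkpoint, measured 31.4 ± 1.22 CPM at 6 h and 37.1 ± 0.43 CPM at 0 h (-0.24 ± 0.06, adjusted p = 0.00678). Of 16 tested modifiers and binding partners of p53, 1 was higher and 6 lower. Ppp1r13b, which encodes the p53 cofactor ASPP1, rose to 20.8 ± 0.23 CPM at 6 h, against 12.4 ± 0.37 CPM at 0 h (0.74 ± 0.08, adjusted p = 5.95e-06). Trp73, the gene of the p53 relative p73, fell to 7.49 ± 0.74 CPM at 6 h, against 12.98 ± 1.13 CPM at 0 h (-0.79 ± 0.11, adjusted p = 8.40e-05). The deacetylase gene Sirt1 fell by 0.29 (adjusted p = 4.60e-05).

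Of 27 further p53 targets 2 were higher and 7 lower at 6 h than at 0 h, against 10.0% and 12.3% of all genes. Their median log2 fold change was -0.05. Tigar, a fructose bisphosphatase, measured 85.7 ± 1.14 CPM at 6 h and 106 ± 1.27 CPM at 0 h (-0.31 ± 0.04, adjusted p = 4.91e-05), and Bid, a BH3-only protein, fell by 0.32 (adjusted p = 0.000631). Pml, the organiser of PML bodies, measured 189.6 ± 3.00 CPM at 6 h and 155.5 ± 3.54 CPM at 0 h (0.29 ± 0.04, adjusted p = 5.36e-05). Of 11 tested members of the BCL2 family outside the 32 genes, 2 were higher and 3 lower. The 3 that fell were the survival genes Bcl2l1 (-0.40 ± 0.04, adjusted p = 7.27e-06) and Mcl1 (-0.16 ± 0.03, adjusted p = 0.00146) and the BH3-only gene Hrk (-1.42 ± 0.38, adjusted p = 0.0121), which measured 0.45 CPM at 6 h and 1.21 CPM at 0 h. The 2 that rose, named here after their values were seen, were the BH3-only genes Bcl2l11, which encodes BIM (0.31 ± 0.10, adjusted p = 0.0359), and Bad (0.28 ± 0.10, adjusted p = 0.0471). On the opposite strand Bad shares 20.5% of its exon length with Gpr137, and Bid 17.7% with Bcl2l13, so a part of their counts is uncertain. BCL-XL, the product of Bcl2l1, is known to restrain BAX, whose gene also fell. Of 12 genes that p53 represses through p21 and the DREAM complex none was higher and 4 lower, among them Ccnb1 (-0.21 ± 0.04, adjusted p = 0.00238), Cdc20 (-0.13 ± 0.04, adjusted p = 0.0228) and Mybl2 (-0.11 ± 0.03, adjusted p = 0.0278). At 6 h against 3 h the numbers higher and lower were 1 and 1 for upstream kinases and 1 and 5 for modifiers. They were 3 and 3 for the further targets, 2 and 1 for the BCL2 family and 0 and 2 for the DREAM genes. Over all genes tested, 9.89% were higher and 11.8% lower in that comparison.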

How the data were processed

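The authors deposited raw counts per gene, 1 column for each of the 6 libraries and 1 line for each Ensembl ID. Per the submitters' processing notes, fastp 0.22.0, HISAT2 2.2.1, featureCounts 2.0.3 and GRCm38 (mm10) were used. Per the labels' protocols, the polyA libraries are stranded and RNA integrity numbers were over 8.0. For the annotation release, the strand setting and multiply mapped reads, the choice is not given in the sources used here, so counts of overlapping genes are uncertain.

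Symbols, exon lengths and 3′ UTRs came from GENCODE M21 (55227 of 55487 IDs had a symbol). With R 4.3.3 and edgeR 4.0.16, filterByExpr (minimum 10 counts) left 15748 genes, holding 99.9% of counts. TMM factors and 1 quasi-likelihood fit of the 6 libraries with 3 group means and no covariate were used, with 3 residual and 13.7 prior degrees of freedom. A gene was called at a Benjamini-Hochberg adjusted p under 0.05 over all genes, two-sided. An interval is at 95%, SE is that of the log2 fold change, and CPM is the count scaled by library size and TMM factor.

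Every one of the 32 genes is accounted for. Those called in any comparison, and Trp53, Mdm2 and Cdkn1a, have values in each library, and the others a range. Up to 3 called genes per further list are named. The 32 genes and all lists were chosen with earlier results of these data known.

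Alternatives were RLE size factors, no filter, a minimum of 1 CPM in 2 libraries, DESeq2 1.42.0, limma 3.58.1 voom, the 4 libraries compared alone, a replicate block, a feeder-marker covariate and leaving out each library. Library totals without scaling factors and the legacy edgeR fit were added after seeing the data. The tests were tried on simulated counts. No library was counted as a duplicate, since replicates exceeded sampling noise, with a chi-square over its degrees of freedom of 4.18 at 0 h, 1.97 at 3 h and 6.46 at 6 h.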

Additional observations from a re-analysis of the deposited data

Results flagged for a closer look

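For 10 of the 32 genes the change at 6 h differed from the change at 3 h, against 21.7% of all genes tested. The edgeR test of 6 h against 3 h was used. It is the test of that difference because both changes are taken from the same 0 h libraries. The 6 h change less the 3 h change, on the log2 scale, was -0.55 for Plk3, -0.32 for Gtse1, -0.27 for Aen, -0.25 for Trp53inp1, -0.24 for Plk2, -0.20 for Ppm1d, -0.19 for Eda2r, -0.15 for Bax, -0.15 for Pmaip1 and 0.67 for Rrm2b. Adjusted p ran from 4.09e-05 for Gtse1 to 0.0332 for Ppm1d. In Plk3, Ppm1d and Rrm2b the 3 h libraries lay with those of 0 h, at changes of 0.02, 0.01 and 0.04. In Pmaip1, Eda2r, Plk2 and Aen the 3 h changes were -0.20, -0.16, -0.14 and -0.12, none of them called.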

How the results depend on the processing

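At 6 h against 0 h, 9 of the 13 genes that fell (Trp53inp1, Gtse1, Plk2, Plk3, Bax, Pmaip1, Aen, Tnfrsf10b and Eda2r) and Rrm2b were called in all 16 alternatives. The number lower ran from 10 to 15 (10 to 13 when 1 library was left out), against 13, and the median of the 32 genes from -0.12 to -0.06. The number higher was 1 with no filter and with DESeq2, and 1 to 2 when 1 library was left out, against 2. At 3 h against 0 h the number lower was 1 with only the 4 libraries compared, 2 with the replicate block and 0 to 2 when 1 library was left out, against 0. At 6 h against 3 h the number lower was 4 with no filter, 5 with DESeq2 and 4 to 9 when 1 library was left out, against 9. The number higher there was 2 with the CPM minimum, with the 4 libraries compared, with the replicate block, with the feeder-marker covariate and without scaling factors, and 1 to 3 when 1 library was left out, against 1. With no filter more genes are tested; the cause of the other differences was not tested. Chek2 turned from -0.01 to 0.22 (adjusted p = 0.0402) at 6 h against 3 h with the feeder-marker covariate.

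Over all genes, calls at 3 h against 0 h numbered 1 higher and 3 lower without 3 h replicate 1 and 34 higher and 215 lower without 0 h replicate 2, against 8 and 14. They numbered 55 and 187 with the replicate block, 23 and 51 with only the 4 libraries compared, 5 and 7 without 0 h replicate 1, 4 and 3 without 3 h replicate 2, 28 and 61 without 6 h replicate 1, and 27 and 61 without 6 h replicate 2. With no filter edgeR called none (1839 at an unadjusted p under 0.05). At 6 h against 3 h they numbered 662 and 852 without 3 h replicate 2, 758 and 954 without 3 h replicate 1, 977 and 1180 without 6 h replicate 1, 648 and 1077 with no filter, and 743 and 1001 with the feeder-marker covariate, against 1558 and 1856. At 6 h against 0 h they numbered 790 and 1239 with no filter, against 1575 and 1940. DESeq2 called 613 higher and 1088 lower at 6 h against 0 h, 4 and 8 at 3 h against 0 h, and 501 and 948 at 6 h against 3 h.

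Whether libraries of the same replicate number belong together is not in the labels, and the main fit did not pair them. Deviations of same-numbered libraries from their group means correlated at 0.04 (0 h and 3 h), 0.04 (0 h and 6 h) and -0.02 (3 h and 6 h) across genes. Such low values over all genes cannot exclude pairing in a part of the genes. The summed feeder markers were higher in replicate 1 than in replicate 2 at each time. With the replicate block 14 of the 32 genes were lower and 2 higher at 6 h against 0 h, Phlda3 being added. At 3 h against 0 h 2 were lower (Pmaip1 and Tnfrsf10b), and at 6 h against 3 h 9 were lower and 2 higher. Over all genes the block gave 2312 lower and 1915 higher at 6 h against 0 h, against 1940 and 1575 without it. At 3 h against 0 h it gave 187 and 55, against 14 and 8, and at 6 h against 3 h 2243 and 1943, against 1856 and 1558. With 2 libraries a time, changes in genes of low level such as Fas and Gdf15 have wide intervals.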
